A study of Homo sapiens with 9 samples.

Results

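Megabase windows dense in H3K4ox are 366 of the 2893 windows of 1 Mb into which the autosomes were cut, each holding 14 or more H3K4ox peaks found in both ChIP replicates. They were chosen from the peaks themselves: each replicate 1 peak that overlapped a replicate 2 peak by 1 bp or more, here called a shared peak, was counted in the window of its midpoint. Dense windows therefore made up 12.7% of all windows by rule, and they held 6278 of the 20158 shared autosomal peaks (31.1%). They are set against 539 sparse windows, with 2 or fewer shared peaks and at least 1 ATAC peak.

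All libraries came from the human breast cancer line MDA-MB-231, which lacks the usual hormone receptors and HER2 amplification. The 2 H3K4ox ChIP-seq replicates used an antibody made by the study's own laboratory against modified peptides, and their labels name no hairpin or treatment. The ATAC list analysed is named for shLOXL2 cells, which carry a short hairpin RNA for LOXL2 depletion, although the labels of both the shControl and the shLOXL2 ATAC library cite it, so whether it and the H3K4ox lists come from cells of the same state is not known here. No label says whether the H3K4ox replicates were separate cultures, and no H3 peak list was used here.

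H3K4ox denotes histone H3 carrying an oxidised lysine 4, a modification that the enzyme LOXL2, of the lysyl oxidase family, is reported to make. Methylation of the same residue marks active promoters and enhancers. ATAC-seq uses a transposase that inserts adapters where DNA is accessible. At the scale of megabases human chromosomes alternate between gene-rich, early replicating stretches and gene-poor stretches that replicate late and often lie at the nuclear lamina. Chromosomes 19 and 22 are known as gene-rich, and chromosomes 4, 13 and 18 as gene-poor.

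The lists held 26778 peaks in replicate 1, 27287 in replicate 2 and 55160 in the ATAC list. In RNA of the line, shControl libraries had LOXL2 at 85.5 and 84.5 FPKM and shLOXL2 libraries at 15.2 and 12.1 FPKM. All 7 basal and mesenchymal-like markers were above 1 FPKM in all 4 RNA libraries (summed level 3480 to 3568 FPKM). Of 6 luminal markers only KRT8 was above 1 FPKM in all 4 (summed level 114 to 149 FPKM), with ESR1, PGR and FOXA1 below 1 FPKM throughout. GATA3 was at 1.65 and 1.66 FPKM in shControl and 1.46 and 0.944 in shLOXL2 libraries. CDH1 was at 0.339 and 0.837 FPKM in shControl and 1.43 and 1.51 in shLOXL2 libraries. The 3 fibroblast markers summed to 0.130 to 0.269 FPKM and the 3 blood markers to 1.39 to 2.53 FPKM. Of the blood markers, LYZ was above 1 FPKM in all 4 libraries (1.13 to 1.54 FPKM). PTPRC stayed below 1 FPKM and CD3E was listed at 0.

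Because the rule used the H3K4ox counts, and because windows of 1 library are not replicates of a condition, the comparisons below are descriptions, given per replicate and per list, with no test. An SD over windows is the spread among windows, not a replicate error.

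Shared peaks were spread unevenly over the genome. A window held 6.97 shared peaks on average, with a variance of 29.5, or 4.24 times the mean, and 3.83 times the mean over the 2727 windows with an ATAC peak. Counts in the dense windows ran from 14 to 33, with a median of 16, while 325 windows held 0, of which 160 had no ATAC peak either. At the border of the rule stood 73 windows with exactly 14 shared peaks and 87 with exactly 13. The first held 16.04 ± 1.59 replicate 2 peaks and 15.3 ± 8.32 ATAC peaks per window, and the second 15.6 ± 2.04 and 16.7 ± 6.93 (mean ± SD over windows), so the minimum of 14 falls within a continuous distribution and separates no distinct class.

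**Figure D1:**
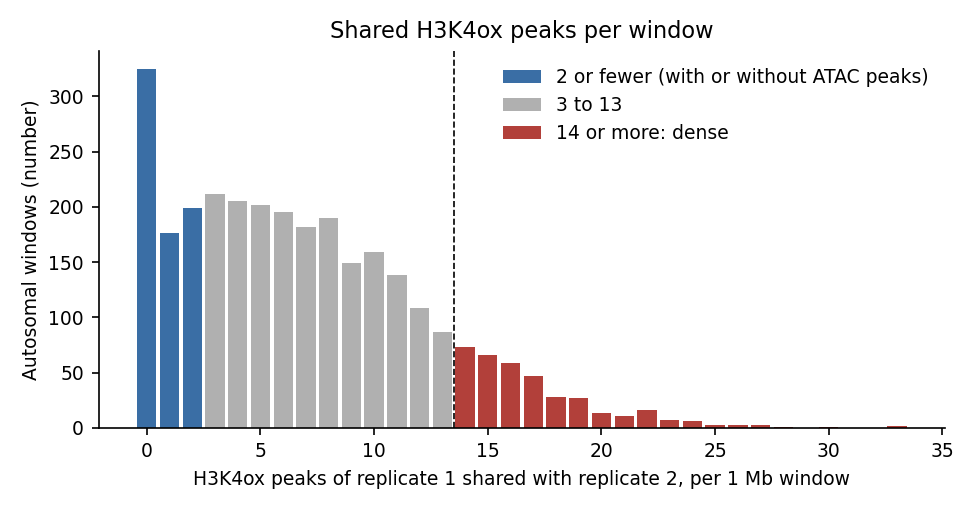
Number of autosomal 1 Mb windows (y axis) by the number of replicate 1 H3K4ox peaks shared with replicate 2 (x axis). The dashed line marks the minimum of 14; the 366 dense windows form the right tail of a distribution without a break between 73 windows at 14 and 87 at 13.

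Over all 2893 windows, the counts of the replicates, with no overlap asked, had a Spearman rho of 0.946. This is a description, since the windows share stretches without peaks and base composition and are not independent. Without the demand for overlap, dense windows held 19.3 ± 3.87 peaks of replicate 1 and 19.4 ± 3.89 of replicate 2 (mean ± SD, 366 windows), against 8.53 and 8.69 over all windows. The counts of both replicates in dense windows are largely fixed by the rule, since each shared peak needs a replicate 2 peak. Counting every peak, replicate 2 fell below 14 in 3 dense windows, to a lowest count of 13. Counting its shared peaks only, it fell below 14 in 23 dense windows, to a lowest count of 12. In dense windows 88.8% of replicate 1 and 87.8% of replicate 2 peaks had a partner in the other list, against 43.8% and 41.0% in sparse windows. These shares follow in part from the rule, which counted only peaks with a partner. Counting every peak of 1 replicate with no partner asked, 576 windows reached 14 for replicate 1 and 592 for replicate 2, so the number of dense windows depends on the demand for both.

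The covered length followed the number of peaks. Shared peaks took up 5.80% of the bases of dense windows in replicate 1 and 5.81% in replicate 2, against 0.355% of sparse windows in both replicates and 2.34% and 2.35% of all windows. Even the densest windows were thus mostly outside peaks. The highest cover among the 10 windows with the most shared peaks was 13.3% in both replicates, on chromosome 11 at 48000001 to 49000000 (GRCh37, as are all positions here).

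The most shared peaks were found in a pair of windows. The window on chromosome 6 at 86000001 to 87000000 held 33 shared peaks, 37 peaks in each replicate in all, and 23 ATAC peaks. Of its shared peaks 15 were 4 to 6 kb long and 16 were at most 3 kb. The window on chromosome 11 at 48000001 to 49000000 also held 33, of 36 replicate 1 and 35 replicate 2 peaks, and 20 ATAC peaks. Long peaks were more frequent there, with 19 of 4 to 6 kb and 9 of at most 3 kb. Both lie in runs of dense windows, of 3 and 4 windows.

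The other windows of the leading 10 were spread over 7 chromosomes. On chromosome 10, the window from 96000001 to 97000000 held 30 shared peaks and 29 ATAC peaks, with no dense window beside it. On chromosome 12, the window from 55000001 to 56000000 held 28 shared peaks, 16 of them 4 to 6 kb long, and 13 ATAC peaks. A count of 27 was reached by 3 windows, on chromosome 4 from 98000001, on chromosome 11 from 55000001 and on chromosome 14 from 46000001. The last differed in make-up, with 20 of its 27 peaks at most 3 kb and 5 of 4 to 6 kb. Windows with 26 lay on chromosome 3 from 120000001, on chromosome 4 from 73000001 and on chromosome 6 from 75000001. Over the 10 windows ATAC peaks numbered 11 to 29, a range that lies inside the 1 to 56 of all dense windows.

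Within the leading 5 windows, the shared peak with the highest authors' score in replicate 1 was 3912 to 5501 bp long and held no ATAC peak in any of the 5. The highest of these scores belonged to the peak on chromosome 11 at 48252061 to 48257561, 5501 bp long with 279 tags (sequenced reads assigned to the peak). Its fold enrichment, as deposited by the authors, was 10.26 in replicate 1 and 10.01 in replicate 2, where the peak spanned 4552 bp. On chromosome 6 the peak at 86404778 to 86409182 had authors' folds of 8.93 and 6.03 in replicates 1 and 2. On chromosome 10 the peak at 96669804 to 96673715 had folds of 10 and 6.08. In the windows of chromosomes 12 and 4 the folds were 8.38 and 5.62, and 7.59 and 6.32. These 5 peaks were ranked on replicate 1 scores, so their higher folds in replicate 1 are no comparison of the replicates.

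Inside the typical dense window the peaks were scattered and did not form a single cluster. Cut into 10 bins of 100 kb, a dense window had peaks in a median of 8 bins (lowest 4), and 217 of the 366 (59.3%) had peaks in 8 or more. The fullest bin of a window held a median of 4 peaks, and up to 10. Neighbouring shared peaks lay a median of 29717 bp apart over 5912 gaps, and 345 of these gaps (5.84%) were under 1 kb, spread over 213 windows. The rule counts such close neighbours as separate peaks. Joined before counting, they left 312 of the 366 windows at 14 or more.

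Dense windows lay on 21 of the 22 autosomes, with none on chromosome 22, but unequally. Chromosome 4 held 53 of them, 27.6% of its windows, and chromosome 5 held 47, or 26.0%. Together these chromosomes hold 27.3% of the dense windows and 12.9% of all windows. Chromosomes 11, 6 and 3 followed with 22.96%, 19.8% and 17.2% of their windows dense. At the other end stood chromosomes 16, 17, 19, 20 and 22, where 9 of 348 windows were dense and 172 were sparse, 31.9% of all sparse windows. On chromosome 19, 60.0% of the windows were sparse and 1 was dense.

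The gene-poor chromosomes did not behave as a group. On chromosome 4, 27.6% of windows were dense, against 3 windows (2.59%) on chromosome 13 and 1 (1.28%) on chromosome 18. Sparse windows were not frequent on these chromosomes either, at 6.25%, 10.3% and 8.97%. ATAC peaks also differed between them, with 16.4 per window over all of chromosome 4, 8.20 on chromosome 13 and 14.1 on chromosome 18. Chromosome copy number in the line was not analysed here.

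**Figure D2:**
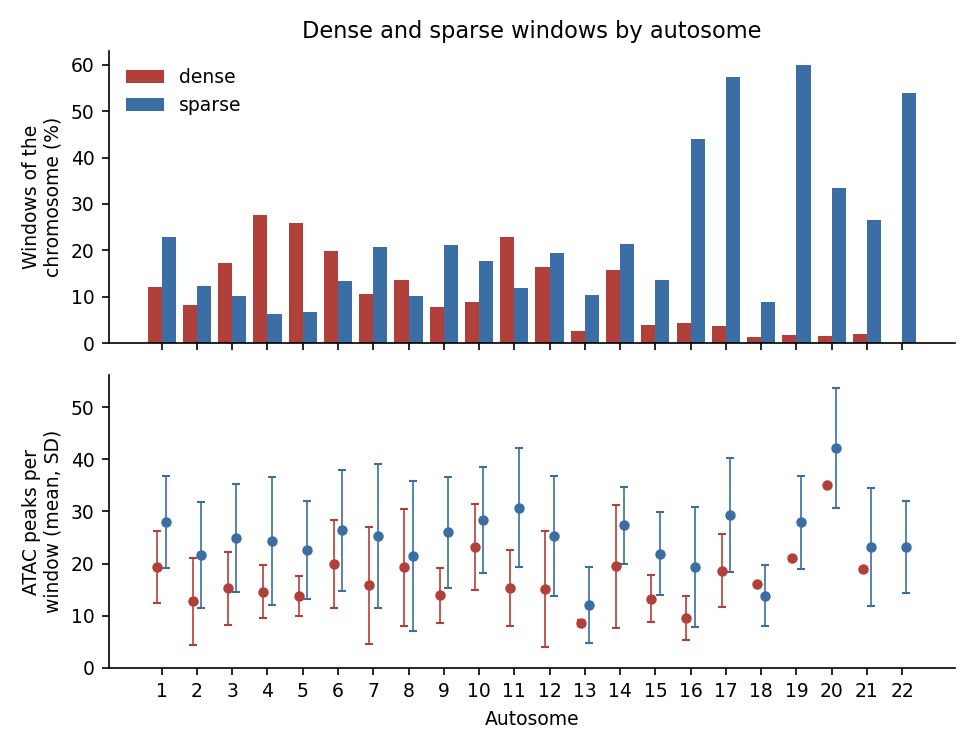
Upper panel, percent of each autosome's 1 Mb windows that were dense (red) or sparse (blue). Lower panel, ATAC peaks per window (mean; bars, SD over windows; no bar where there is 1 window) in the same groups. Dense windows peak at 27.6% on chromosome 4, and on all 17 autosomes with at least 3 windows of each kind the dense mean lies below the sparse mean.

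Dense windows lay farther in Mb from the outermost peaks of their chromosomes than sparse windows did. The centre of a dense window was a median of 49.96 Mb from the nearer of the outermost peaks of its chromosome, against 16.7 Mb for sparse windows and 32.0 Mb for all. Within 5 Mb of an outermost peak lay 6 dense windows (1.64%), 103 sparse windows (19.1%) and 10.99% of all windows. The files give no chromosome lengths, so the outermost peak of any list stood for the chromosome end. On chromosomes 13, 14, 15 and 22 the first peak lay at position 16072070 or later. Distances in Mb can also be larger on longer chromosomes. Chromosomes 4, 5, 3, 6, 11 and 1 held 62.6% of dense windows, and 16, 17, 19, 20 and 22 held 31.9% of sparse windows. Position relative to chromosome length was not measured, so it cannot be told apart from the choice of chromosomes. On 18 autosomes the widest stretch without any peak spanned more than 1 Mb. Within 5 Mb of that stretch lay 14.6% of the dense windows of these chromosomes, 5.63% of the sparse and 11.1% of all. The 2893 windows include 161 with 2 or fewer shared peaks and no ATAC peak, which are neither dense nor sparse by rule. Some of them lie inside such stretches or before the first peak of a chromosome. The values for all windows are thus not limited to windows with peaks.

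Of the 366 dense windows, 183 touched another dense window and 183 stood alone. The 183 in contact formed 70 runs, of which 47 had 2 windows, 10 had 3, 10 had 4 and 3 were longer. Adjacency comes from the counts that chose the windows. Windows in runs were close to single ones in other measures, with 15.8 ± 6.57 against 16.7 ± 9.37 ATAC peaks (mean ± SD over windows) and window median peak lengths of 3225 and 3247 bp (median over windows).

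The longest run spanned 8 Mb of chromosome 6, from 62000001 to 70000000. Its windows held 22, 21, 22, 15, 19, 24, 21 and 14 shared peaks in order, 158 in all, with 183 peaks in replicate 2. ATAC peaks in the same windows numbered 13, 13, 13, 15, 17, 27, 15 and 30. The window with the fewest H3K4ox peaks thus had the most ATAC peaks, but the window with the most H3K4ox peaks had the second most. The first window of this run begins just beyond the stretch of chromosome 6 from 58735583 to 61953545 that holds no peak in any list.

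A second run on chromosome 6 began 4 Mb further on, from 74000001 to 80000000, with 113 shared peaks in 6 windows and 142 ATAC peaks. Its first window held 40 ATAC peaks and its last 11. The run on chromosome 14 from 42000001 to 47000000 held 93 shared peaks in 5 windows, rising to 27 in the last, and 79 ATAC peaks. Runs of 4 windows tied, and the first of them by chromosome and start are described. On chromosome 1 the run from 102000001 to 106000000 stood close to the minimum, with 14, 14, 14 and 15 shared peaks and 9, 9, 17 and 15 ATAC peaks. The run on chromosome 4 from 58000001 to 62000000 was fuller, with 19, 16, 21 and 19 shared peaks, and its windows held 10, 12, 10 and 13 ATAC peaks. A further run of 4, singled out after its values were seen because it holds a leading window, lay on chromosome 11. From 48000001 to 52000000 it held 33, 18, 15 and 22 shared peaks and ended at a stretch without any peak, from 51590578 to 54715186. In its last window, which that stretch cuts short, 22 shared peaks stood beside 4 ATAC peaks.

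Windows beyond a dense one hold 13 or fewer shared peaks by rule, so the step from dense windows to their neighbours is set by the choice of windows and is no measure of how sharply they end. Windows next to one held 9.92 ± 3.99 replicate 2 peaks (mean ± SD, 455 windows), against 19.4 ± 3.89 in the dense windows, and those 2 Mb away 8.53 ± 4.52. At 8 Mb or more the mean was 5.42 ± 3.94 (1017 windows). Neighbours within 1 Mb were not empty: among the 366 neighbours of single dense windows 6.83% had 2 or fewer shared peaks, against 27.7% of all windows that were not dense. The 27.7% include 161 windows without any ATAC peak. Of the 2361 windows that were not dense but held an ATAC peak, 539 had 2 or fewer shared peaks. The ATAC mean, taken only over windows with an ATAC peak, moved the other way and by less. It went from 16.2 ± 8.09 in dense windows to 17.9 ± 8.73 next to them and 22.1 ± 12.1 at 8 Mb or more (914 windows). These spreads overlap at every distance.

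**Figure D3:**
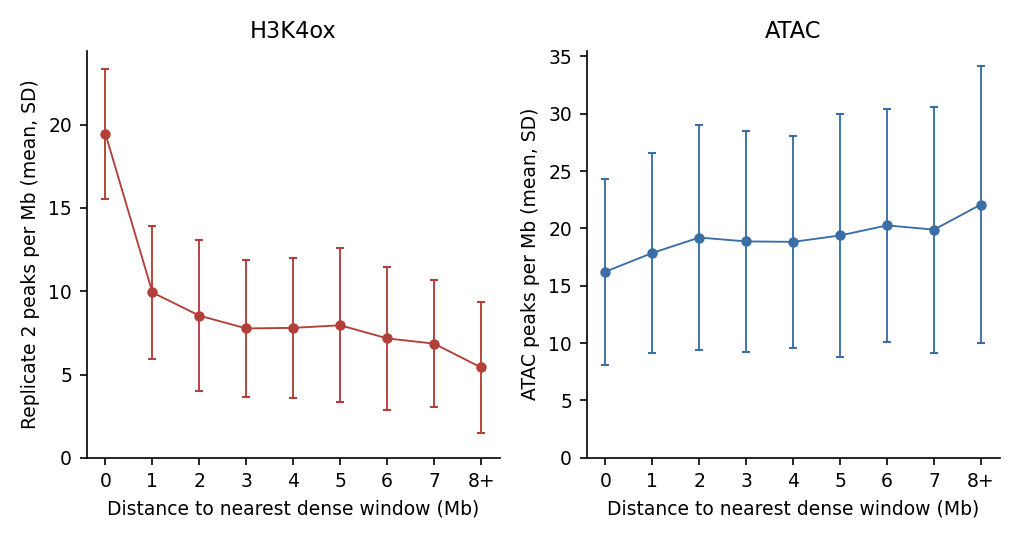
Mean peaks per 1 Mb window (y axes; bars, SD over windows) against the distance to the nearest dense window of the chromosome (0 is the dense windows; 8+ pools the rest). Left, replicate 2 H3K4ox peaks, 19.4 in dense windows and 9.92 next to them, a step set by the rule; right, ATAC peaks in windows with at least 1, from 16.2 to 22.1.

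Dense windows held fewer ATAC peaks than sparse ones. The mean was 16.2 ± 8.09 ATAC peaks per Mb in dense windows (SD over 366 windows; lowest 1, median 15, highest 56) and 25.7 ± 11.5 in sparse windows (539 windows; lowest 1, median 25, highest 60), a ratio of 0.632. The full ranges overlapped almost fully. Both quartiles were lower in dense windows, at 11 and 20 against 17.5 and 33 in sparse windows, and the spans between them overlapped from 17.5 to 20. Of the dense windows, 41 (11.2%) held more ATAC peaks than the sparse median, and 84 sparse windows (15.6%) held fewer than the dense median. Below the median of 18 ATAC peaks lay 243 of the 366 dense windows (66.4%), where 49.4% of all windows with an ATAC peak did, and 135 of the sparse windows (25.05%). The rule asks for 1 ATAC peak in a sparse window only, which kept 161 windows without any out of that group.

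The ATAC mean fell in steps from the sparse windows to those with 9 to 11 shared peaks, and little beyond. In windows with at least 1 ATAC peak, the mean was 25.7 at 0 to 2 shared peaks, 20.6 at 3 to 5, 17.8 at 6 to 8 and 16.9 at 9 to 11. It then stayed between 15.6 and 17.2 up to 33 shared peaks. Against all other windows with an ATAC peak, at 20.1 ± 10.7, the ratio was 0.806 in place of 0.632. Among the dense windows themselves, those with 17 or more shared peaks held 16.9 ± 8.37 ATAC peaks and those with 14 to 16 held 15.6 ± 7.82.

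**Figure D4:**
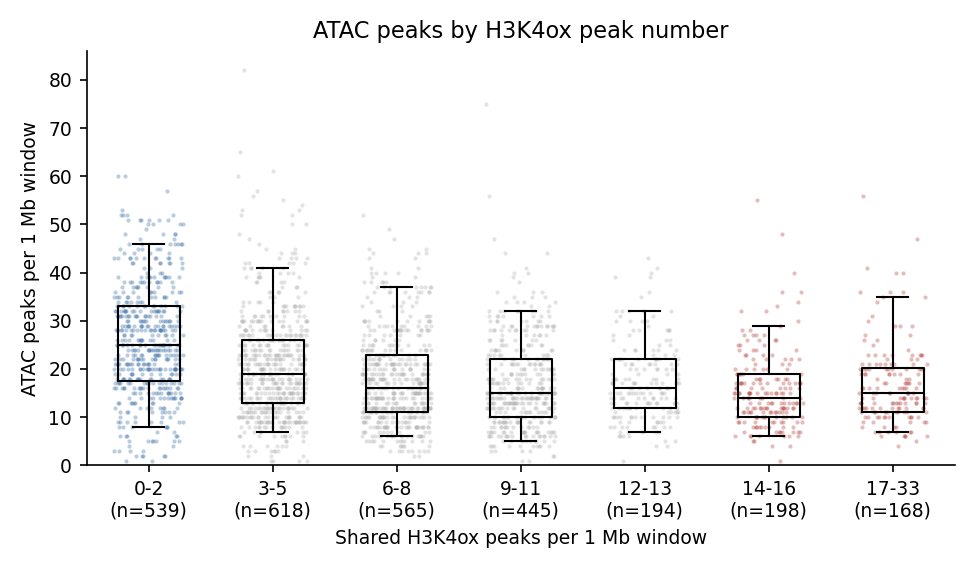
ATAC peaks per 1 Mb window (y axis) by number of shared H3K4ox peaks (x axis), in windows with at least 1 ATAC peak. Points are windows, boxes quartiles with the median, whiskers the 5th to 95th percentile; the median is 25 at 0 to 2 shared peaks and 14 and 15 in the dense classes (red).

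The order of dense below sparse was also seen within chromosomes. Of the 17 autosomes with at least 3 dense and 3 sparse windows, 17 had the lower ATAC mean in dense windows, with ratios from 0.491 on chromosome 16 to 0.897 on chromosome 8 and a median of 0.614. On chromosome 18, with 1 dense window, that window held 16 ATAC peaks against a sparse mean of 13.9. On chromosome 4 the means were 14.6 ± 5.01 and 24.3 ± 12.2 (SD over 53 and 12 windows), and on chromosome 11 they were 15.4 ± 7.24 and 30.8 ± 11.3 (31 and 16 windows). Distance to the chromosome end also moved with the group. Away from the ends, in windows over 10 Mb from an outermost peak, the means were 16 ± 7.81 in 349 dense and 24.4 ± 10.5 in 363 sparse windows, a ratio of 0.655.

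Dense windows with many ATAC peaks existed. The most were 56, on chromosome 7 at 150000001 to 151000000, beside 17 shared H3K4ox peaks, then 55 on chromosome 14 from 56000001 and 48 on chromosome 12 from 103000001. All 3 were single dense windows with 14 to 17 shared peaks. The fewest were 1, on chromosome 2 at 126000001 to 127000000, beside 15 shared peaks, then 4 each in 3 windows, on chromosome 11 from 51000001, chromosome 12 from 45000001 and, outside the rule only through the tie, chromosome 16 from 60000001.

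The ATAC peaks of dense and sparse windows were of like strength. Both groups had a median length of 55 bp, a median pileup (fragments stacked at the summit) of 4 and a median −log10 q-value of 0.772, as deposited by the authors. Most of them missed a q-value of 0.05. It was reached by 25.4% of those in dense windows (exact 95% interval 24.3% to 26.6%) and 22.4% of those in sparse windows (21.7% to 23.1%), intervals that do not overlap. Counting these alone, dense windows held 4.13 ± 2.44 and sparse windows 5.74 ± 3.24 per Mb, a ratio of 0.719, so the gap narrowed. No peak past that q-value was found in 12 dense windows (3.28%) and 18 sparse windows (3.34%), against 3.78% of all windows with an ATAC peak. Intervals cover counting error only.

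Within dense windows, H3K4ox peaks and the DNA between them held ATAC peaks at similar density. ATAC midpoints numbered 15.5 per Mb inside shared peaks, over 21.2 Mb, and 16.3 per Mb outside them. In sparse windows the values were 21.9 inside, over 1.92 Mb and 42 ATAC peaks, and 25.7 outside. Of the shared peaks in dense windows, 325 of 6278 overlapped an ATAC peak (5.18%, exact 95% interval 4.64% to 5.75%), against 41 of 572 in sparse windows (7.17%, 5.19% to 9.60%). The difference of -1.99 percentage points has a counting interval from -4.48 to 0.0669. That interval takes peaks as independent and is no test over replicates. Over all shared peaks 1047 of 20158 overlapped one (5.19%), and against all other windows with an ATAC peak the difference was -0.0403 points. In replicate 2 the shares were 5.09% and 6.19%.

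The difference in peak length between dense and sparse windows depended on which peaks were taken. Shared peaks of replicate 1 had a median of 3253 bp in dense windows (quartiles 2053 and 4660, 6278 peaks) and 3144.5 bp in sparse windows (1972 and 4733, 572 peaks). In replicate 2 the medians were 3305 and 3035 bp. The difference was 108.5 bp in replicate 1 and 270 bp in replicate 2. Over every replicate 1 peak, shared or not, the medians were 2851 and 2075 bp, a difference of 776 bp. That difference follows in part from the rule, which limits shared peaks in sparse windows. Peaks without a partner, short in both groups (medians 1497 and 1529 bp), were 791 of 7069 in dense and 733 of 1305 in sparse windows. The length difference was 484 and 633.5 bp where the windows were chosen on 1 replicate with no partner asked, and 449 bp with peaks under 1 kb apart joined. It turned to -85 bp with windows shifted by 500 kb, to -27 bp at a score of 100 or more and to -58 bp without chromosomes 4 and 5, and the dense median was the longer on 8 of the 17 autosomes. A window median above the 3257 bp of all windows was found in 180 of 366 dense windows (49.2%) and in 188 of 374 sparse windows with a shared peak (50.3%), where 50% is the share over all windows.

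Among shared peaks the shares of short and long ones had intervals that overlapped. Peaks of 4 to 6 kb made up 38.4% of shared replicate 1 peaks in dense windows (exact 95% interval 37.2% to 39.6%) and 36.2% in sparse windows (32.2% to 40.3%), and 39.1% and 34.9% in replicate 2. Peaks of at most 3 kb made up 46.7% and 48.1% in replicate 1. All but 2 dense windows held at least 1 shared replicate 1 peak of 4 to 6 kb, at a median of 6 per window. All but 1 held a peak of at most 3 kb. Of all 2893 windows, 657 held no shared peak of 4 to 6 kb and 551 held none of at most 3 kb. Both counts include the 325 windows without any shared peak. The dense counts follow largely from the rule, which asks for many shared peaks in each window.

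**Figure D5:**
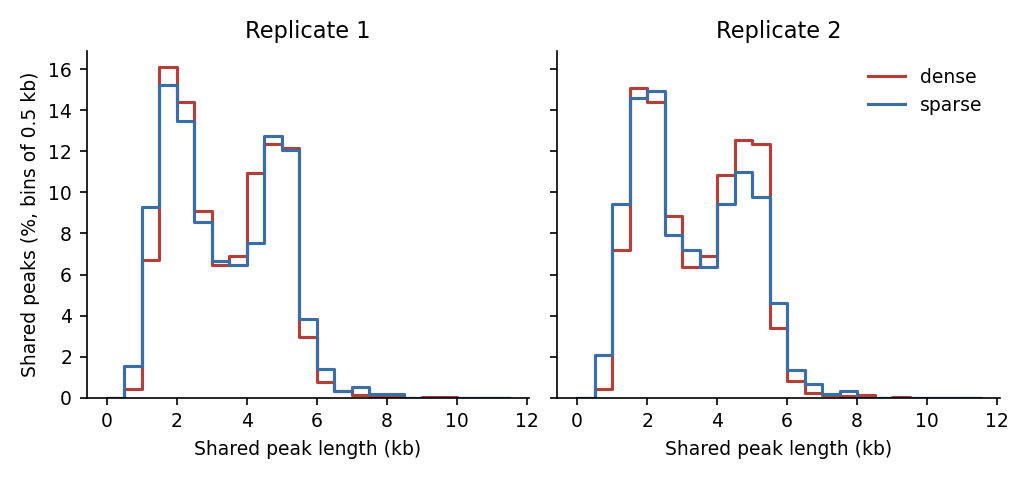
Length of shared H3K4ox peaks (x axis, kb) as percent of the shared peaks of dense (red) and sparse (blue) windows (y axis, bins of 0.5 kb), for each replicate. Both groups show a short and a long mode, with 38.4% and 36.2% of replicate 1 peaks at 4 to 6 kb.

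Typical peak length varied among the dense windows. The longest median in a dense window was 5236 bp on chromosome 12 at 80000001 to 81000000, where 10 of 17 shared peaks were 4 to 6 kb long and the replicate 2 median was 5255 bp. Next came chromosome 4 from 54000001, at 5131 bp and 16 of 21, and chromosome 6 from 57000001, at 5095 bp and 12 of 24. The shortest was 1642 bp on chromosome 2 at 199000001 to 200000000, where 11 of 14 shared peaks were at most 3 kb, with 1933 bp in replicate 2. Medians of 1854 bp on chromosome 13 from 75000001 and 1935 bp on chromosome 8 from 111000001 followed.

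Peak by peak, tag density was similar in dense and sparse windows, while median folds and scores were higher in dense ones. The median authors' fold of shared peaks was 6.47 in dense and 6.24 in sparse windows in replicate 1, and 6.24 and 5.92 in replicate 2. The median authors' score was 166 and 144 in replicate 1, and 171 and 142 in replicate 2. Tags per kb of peak had medians of 44.6 and 44.9 in replicate 1 and 42.8 and 42.9 in replicate 2. Peaks without a partner were short in both groups, with replicate 1 medians of 1497 bp in dense and 1529 bp in sparse windows. They numbered 791 in dense and 733 in sparse windows, so the sparse windows held more unshared than shared peaks.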

How the data were processed

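The members and the comparisons were chosen with earlier results of these data known. Per the submitters' processing notes, Bowtie, Cufflinks and GRCh37 were used, without versions. The authors' 2 H3K4ox lists, called per replicate, have no header and the layout of a MACS 1.x table. They give tag counts, a score (10 times the −log10 p of the peak), a fold (ratio over a background that no label or header names) and a false discovery rate in percent, as deposited. The ATAC list gives pileup (a coverage signal), fold and −log10 q-values, per the file header. No label or header says whether ATAC reads were shifted for the transposase. RNA values are the authors' deposited FPKM, whose depth is unknown, used for markers only.

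Coordinates are 1-based, and peaks were placed by midpoint in windows of 1 Mb starting at position 1, up to the last peak of each autosome. Shares carry exact Clopper-Pearson 95% intervals. Named windows follow a rule: the 10 with the most shared peaks, the 5 longest runs, and the 3 highest and 3 lowest in ATAC peaks and in median length, with ties taken by chromosome, then start. No GRCh37 genome or annotation was used here, so genes in the windows, their expression and sequences were not analysed. Overlap, window counts and runs were tested on simulated peaks. Alternatives covered the replicates, overlap, window grid, minimum, peak thresholds and comparison group. Python 3.11.15, numpy 2.4.6, pandas 2.3.3 and scipy 1.17.1 were used.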

Additional observations from a re-analysis of the deposited data

Results flagged for a closer look

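Chromosome X lies outside the rule, which takes autosomes only, but 39 of its 156 windows (25%) held 14 or more shared H3K4ox peaks, up to 52 in a window. These windows held 8.67 ± 3.94 ATAC peaks (mean ± SD over windows), against 6.98 over all windows of the chromosome, and their shared peaks had a median length of 2184 bp. Pooled over the autosomes the ATAC order was the other way, with 16.2 per dense window against 18.5 over all windows. Single autosomes differed. On chromosomes 8, 13, 18, 20 and 21 the dense mean was above that of all windows of the chromosome, as on X. On chromosome 8 it was 19.25 against 18.85, and 18, 20 and 21 had 1 dense window each. On the other autosomes with a dense window it was below. The chromosome X windows were singled out because no comparison above uses that chromosome. Their peaks come from the same lists as the autosomal ones.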

How the results depend on the processing

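No paired analysis was possible because no result comes from a test and the 2 H3K4ox replicates form 1 group. With 1 H3K4ox replicate left out and no partner asked, the dense windows numbered 576 to 592, those in runs 353 to 369, the length difference between dense and sparse was 484 to 633.5 bp and the ATAC ratio 0.663 to 0.669. The number of dense windows was 561 at a minimum of 12, 227 at 16 and 71 with a score of 100 or more. An overlap of at least 50% of both peaks gave 20.2 replicate 2 peaks per dense window, a length difference of 274.5 bp and an ATAC ratio of 0.662. The length difference was 270 bp in replicate 2, 776 bp over every replicate 1 peak and 449 bp with peaks under 1 kb apart joined. It reversed to -85 bp with shifted windows, -27 bp at a score of 100 or more and -58 bp without chromosomes 4 and 5; the cause was not tested. The ATAC ratio was 0.652 at a minimum of 16, 0.809 at a score of 100, 0.656 with sparse windows of 1 or 2 shared peaks, 0.806 against all other windows, 0.719 at a q-value of 0.05 or less and 0.658 without chromosomes 4 and 5. At a −log10 q-value of 5 it was 0.368 (counting interval 0.00748 to 3.72), from 1 peak in dense and 4 in sparse windows, and no shared peak of either group overlapped one. The ATAC ratio stayed below 1 in all alternatives run, and the difference in the share with an ATAC peak was negative in the 7 that gave a value, but -0.0403 points against all other windows. With sparse windows of 1 or 2 shared peaks it is the same -1.99 by construction. Of the 51 values, 24 stayed within 1.5 times the reported one (counts) or within the replicate or counting spread (other values), these 7 included. The alternatives without chromosomes 4 and 5, with joined peaks and with a q-value of 0.05 were chosen after seeing the data. Expression of genes in the windows was not run.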

Other observations

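The fullest stretch of 100 kb in any dense window, singled out after its values were seen, lies on chromosome 14 at 24400001 to 24500000. It held 10 shared peaks of 1626 to 6143 bp, with a median of 2291 bp and 28026 bp covered, and its window held 22.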
